A study of Danaus plexippus with 48 samples.

Results

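The 100 genes described here stood higher in the brains of wild-caught migrating monarch butterflies (Danaus plexippus) than in those of laboratory-raised butterflies on either long or short days, which differed little from each other. They were chosen from the 15130 genes of the deposited tables. FPKM (fragments scaled to transcript length and mapped reads) was brought to a common scale by median ratios over the 10595 genes above 0 in all libraries, and y, the log2 of the scaled value plus 1, was averaged over the 16 libraries of each group. A mean of at least 2 FPKM and a difference between short and long days under 0.5 log2 units left 3878 genes. Of these, the 100 with the largest value of the smaller of the migrant differences (from long days and from short days) were taken. The levels in the 3 groups chose these genes, so every difference of level between groups below is a description and carries no test. What the rule did not use is variation within a group: over the day, between pools labelled female and male, and between libraries.

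Brains were sampled in 3 groups of wild-type butterflies. LP (long photoperiod) butterflies were raised in the laboratory from eggs in days of 15 h light and 9 h dark. For SP (short photoperiod) the rearing was the same in days of 10 h light and 14 h dark, both groups being kept on a semi-artificial larval diet and on honey solution as adults. Migrant butterflies were caught in the wild in fall and kept indoors in days of 11 h light and 13 h dark. All groups were kept at 21 °C in their light cycle for at least 7 days. Each library was a pool of 3 brains without the pigmented photoreceptor layer of the retina, and 2 pools were taken per group at 8 times, given as zeitgeber time (ZT, the hours since the lights came on): 1, 4, 7, 10, 13, 16, 19 and 22. The labels call 1 pool of each time female and the other male. Poly(A) RNA of Migrant pools was made into libraries with the NEBNext Ultra Directional kit and that of LP and SP pools with the TruSeq Stranded mRNA kit. Kit, wild origin, diet, day length and group cannot be told apart in any Migrant level below, and in pooled brains more cells of a type and more RNA per cell cannot be told apart either.

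Monarchs of the fall generation fly south in reproductive diapause, a state in which the gonads stay immature, and orient with a sun compass that a circadian clock in the antennae corrects for the time of day. Shortening days and falling temperature are known cues for this state. The brain holds the clock cells and the neurosecretory cells that act on juvenile hormone, whose low level accompanies diapause. None of the 100 genes can be tied to these processes here, because the tables pair no identifier with a gene name and the RefSeq gene table used here matched 0 of the identifiers. Genes are therefore called by identifier, and no role is given for any of them.

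Library depth, as reads in genes recovered from the deposited confidence limits, ran from 7.30 M to 10.6 M in LP (M, 1e6 reads), from 5.47 M to 9.46 M in SP and from 5.75 M to 7.71 M in Migrant. The Migrant library of ZT22 replicate 1 stood apart: in it 37.9% of the other 3778 genes passing both filters lay more than 1 log2 unit from their mean in the other 15 Migrant libraries, and at most 4.08% did so in any other Migrant library. Of the 100 genes, 30 lay that far away there (13 above and 17 below), beside 5 to 21 in the other Migrant libraries. The 21 belonged to ZT10 replicate 2. Results that rest on these libraries are given with and without them.

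The 100 genes were of low to middling level in laboratory-raised brains. The floor of 2 FPKM was a mean over all 48 libraries, so a gene could pass it through Migrant alone. Taking the largest Migrant excess also selects for lower LP and SP levels, so nothing is read from those levels. The median of their mean scaled FPKM was 3.59 for LP and 3.40 for SP, and 12.6 for Migrant. Over all 11630 genes with a mean of at least 0.5 FPKM the same medians were 18.8, 15.6 and 19.2. Even in Migrant the median of the 100 genes thus lay below that of all tested genes. Their quartiles were 1.57 and 7.79 for LP, 1.8 and 8.21 for SP, and 7.67 and 28.3 for Migrant. Together they took 0.266% ± 0.032 (SD, n = 16) of the reads in LP, 0.213% ± 0.027 in SP and 1.03% ± 0.098 in Migrant. These shares are not spread evenly over the genes: DPOGS202792 alone held 25992 reads per Migrant library, at a mean Migrant depth of 6.94 M.

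**Figure D1:**
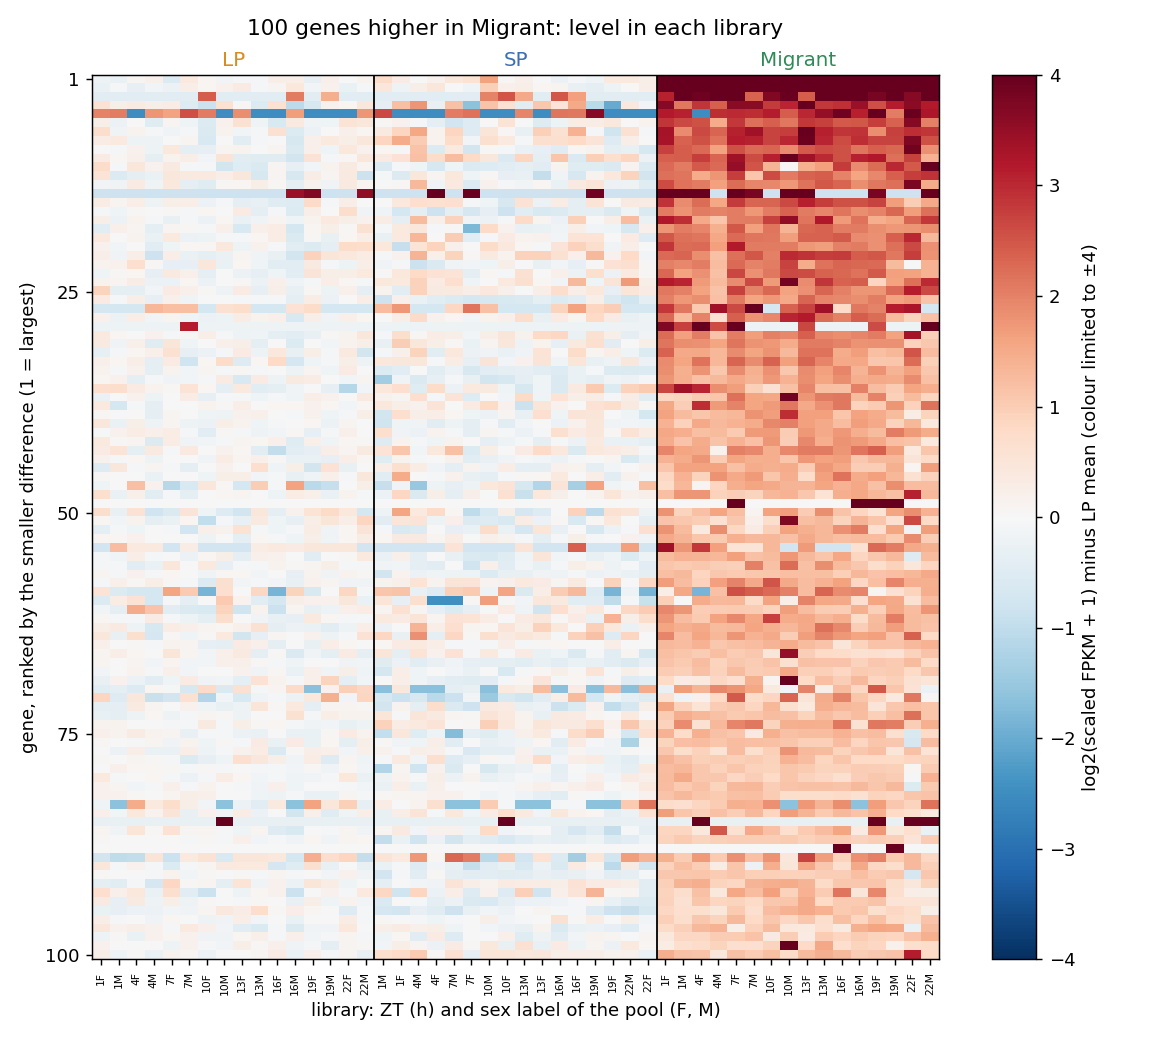
The level of each of the 100 genes (rows, ranked by the smaller of the Migrant differences) in each of 48 libraries (columns, with ZT in hours and the sex label of the pool), as y, the log2 of scaled FPKM plus 1, minus the gene's LP mean. The Migrant block is red in nearly every row; the rows that mix dark cells with white ones are genes with few reads, and single dark cells stand at ZT10 (male) and ZT22 (female).

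Migrant minus LP had a median of 1.34 log2 units over the 100 genes and ran from 0.88 to 4.74. Migrant minus SP had a median of 1.40 and ran from 0.88 to 4.45. Over all tested genes the medians were -0.03 and 0.01. The smaller of both differences passed 1 log2 unit in 73 genes, 2 units in 16, 3 units in 3 and 4 units in 2. SP lay above LP in 53 of the 100, below it in 45 and level with it in 2. Adding 1 before taking logs makes the differences of low genes smaller than the ratio of their levels. Mean levels differed widely between these groups in general: limma called 50.2% of tested genes for Migrant against LP and 81.8% for Migrant against SP. Genes called as higher in Migrant made up 23.6% and 41.4% of the tested genes. For SP against LP it called 81%, and 40.6% of tested genes were called as higher in SP.

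In 39 of the 100 genes every Migrant library lay above every LP and SP library, beside 2.55% of all tested genes and 2.22% of the 3878. The rule selects for such a separation, so nothing is read from the count. The count was 50 without Migrant ZT22 replicate 1, and no share over all genes is given for that omission. Leaving out a library cannot lower such a count in any set of genes, so the 50 is not to be set beside the shares above. The median y of the 100 genes ran from 1.86 to 2.33 in LP libraries, from 1.87 to 2.32 in SP libraries and from 3.52 to 3.93 in Migrant libraries, so that no LP or SP library reached a Migrant one. At each time of day 95 to 99 of the 100 genes were higher in Migrant than in LP or SP, and 85 were higher than both at all 8 times. Among the 8 female pools of each group alone, all 100 were higher in Migrant, by at least 0.63 over LP and 0.66 over SP. Among the male pools all 100 were higher as well, by at least 0.07 and 0.11. The rule favours these counts by time and by sex label too, so nothing is read from them.

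The gene with the largest difference was DPOGS207200 (scaffold DPSCF300001, 5812782 to 5813623 as deposited). Its scaled FPKM was 0.503 at the lowest, 1.21 at the median and 1.84 at the highest in LP, and 0.856, 1.54 and 5.59 in SP. In Migrant it was 40.5, 54.3 and 87.0. The lowest Migrant library was thus far above the highest SP library, and the mean differences were 4.74 log2 units from LP and 4.45 from SP. It rested on 12.6 reads per library in LP, 12.9 in SP and 475 in Migrant. DPOGS204616 (DPSCF300432, 40114 to 45422) had almost the same pattern. It ran from 1.15 to 2.58 in LP (median 1.54), from 1.05 to 4.16 in SP (median 1.86) and from 42.6 to 79.4 in Migrant (median 56.8), with differences of 4.44 and 4.33. No other gene of the 100 passed 4 log2 units in both differences.

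By time of day in Migrant, DPOGS207200 averaged 46.5 scaled FPKM at ZT1 and 77.3 at ZT22, and DPOGS204616 averaged 50.6 and 77.6. Neither was called rhythmic in Migrant (limma adjusted p = 0.145 and 0.195).

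The most abundant of the 100 genes in Migrant was DPOGS214866, with 119 to 352 scaled FPKM over Migrant libraries (median 245), 101 to 165 in LP (median 116) and 96.7 to 152 in SP (median 115). Its groups overlapped only through Migrant ZT22 replicate 1, at 119, and the next lowest Migrant library was at 191. Its differences of 0.97 and 0.99 log2 units were among the smaller ones. DPOGS216097 followed with 119 to 360 in Migrant (median 204), 40.9 to 106 in LP (median 68.7) and 46.9 to 246 in SP (median 93.3). The 360 was also in ZT22 replicate 1, and the next highest Migrant library was at 272. The lowest Migrant means were those of DPOGS209909, at 4.01 against 1.60 in LP and 1.40 in SP, and of DPOGS202807, at 4.07 against 1.68 and 1.19. The gene with the most reads, named after its values were seen, was DPOGS202792 (DPSCF300018, 726869 to 819199), with 25992 reads per Migrant library and the longest span of the 100. It ran from 6.45 to 17.0 in LP (median 9.80), from 5.18 to 8.74 in SP (median 6.80) and from 34.0 to 55.4 in Migrant (median 43.8), with no overlap.

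The difference between SP and LP was bounded by the rule at 0.5 log2 units, and a few genes lay near that bound. DPOGS206219 lay highest, with SP above LP by 0.499, followed by DPOGS206718 with 0.497. DPOGS202792 lay lowest, with SP below LP (-0.497), followed by DPOGS207336 (-0.481). At the other edge of the rule, the smaller difference of DPOGS206979 and DPOGS209464, the last genes taken, was 0.880 and 0.878 log2 units. It was 0.877 in DPOGS205159 and 0.871 in DPOGS201899, the first left out, so no gap in the values marks the end of the list. In all, 1223 of the 3878 genes had a smaller difference above 0.

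The 100 genes varied more between libraries of a group than other genes. The median SD of y over the 16 libraries was 0.290 for LP, 0.372 for SP and 0.474 for Migrant, against 0.134, 0.190 and 0.286 in the other 3778 genes passing the filters. They also had fewer reads: the median was 55.4 reads per library in LP, 41.0 in SP and 146 in Migrant, beside 243, 157 and 192 over all tested genes. As with the levels, the choice of genes favours low values in LP and SP. In Migrant the SD passed 1 in 11 genes and stayed under 0.25 in 11. DPOGS203861 had the narrowest spread, from 29.1 to 43.0 scaled FPKM over the 16 Migrant libraries (SD of y 0.13), above LP at 18.0 to 23.2 and SP at 9.55 to 17.8. DPOGS211993 was next, at 10.3 to 16.7 in Migrant (SD of y 0.16), 3.94 to 5.99 in LP and 2.68 to 5.81 in SP.

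The widest spread belonged to genes with almost no reads. Of the 100 genes, 13 had under 10 reads per Migrant library, with a median SD of 1.42, and 87 had 10 or more, with a median SD of 0.459. The widest, DPOGS213857, was listed at 0 in 7 of 16 Migrant libraries and in 13 each of LP and SP, and had about 1 read (0.999) per Migrant library. DPOGS215367 was listed at 0 in all LP and SP libraries and in 14 of 16 Migrant libraries, so its place among the 100 rests on 2 libraries. DPOGS202189, named after its values were seen, was likewise listed at 0 throughout LP and SP and in 12 Migrant libraries. Both rest on under 1 read per Migrant library, and no fold is given for them. None of the 39 genes without overlap was among the 13.

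**Figure D2:**
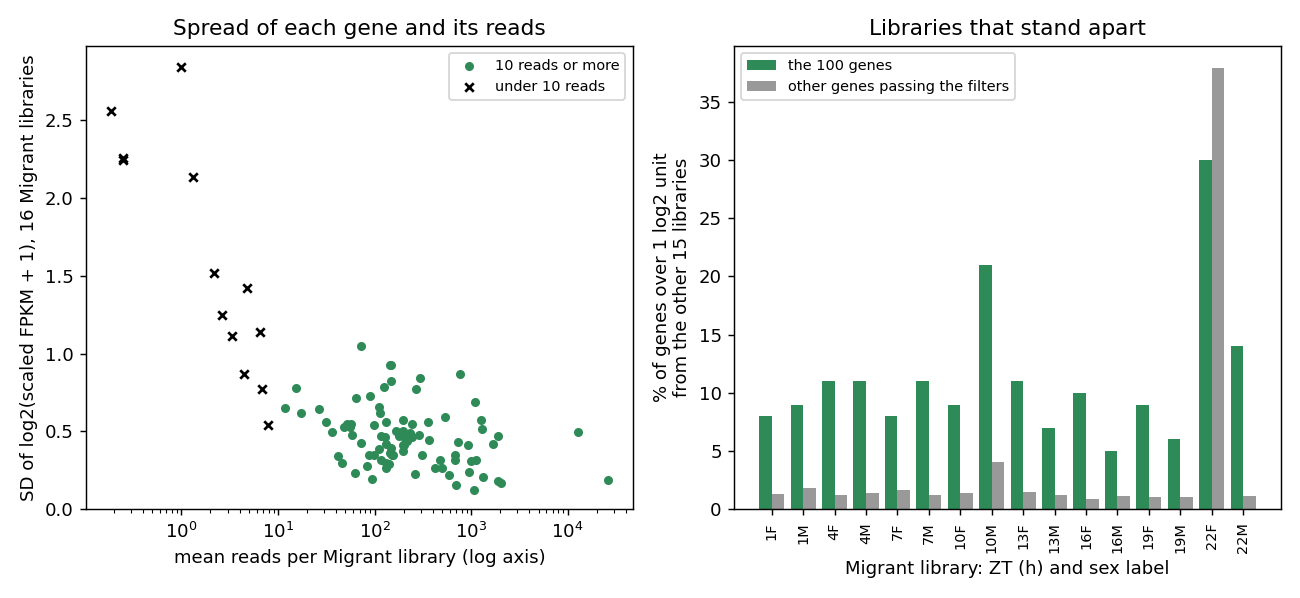
Left, the SD of y (log2 of scaled FPKM plus 1) over the 16 Migrant libraries for each of the 100 genes, against its mean reads per Migrant library on a log axis; crosses are the 13 genes under 10 reads, where the SD reaches 2.84. Right, the share of genes lying over 1 log2 unit from their mean in the other 15 Migrant libraries, per library, for the 100 genes and for the other genes passing the filters; ZT22 female (replicate 1) stands out in both, ZT10 male (replicate 2) at 21% of the 100 genes and 4.08% of the others.

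Among the 87 genes with 10 reads or more, single libraries held some very high values. In 16 of them the highest Migrant library was over 3 times the Migrant median, and 8 of these maxima fell in ZT10 replicate 2 and 3 in ZT22 replicate 1. DPOGS206563, named after its values were seen, had 57.3 scaled FPKM in ZT10 replicate 2, 4.82 in the next highest Migrant library and a Migrant median of 2.86. DPOGS206979, the last but one in rank, had 68.9 there, 9.71 in the next library and a median of 5.05. DPOGS206219 reached 279 there, beside 63.2 and 40.2, and its lowest Migrant library (14.9) still lay above its highest SP library (13.5). Without both libraries, 94 of the 100 genes were chosen again.

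A 24 h rhythm was tested in each group as a cosine and a sine with limma, adjusted over all 11630 genes, which the choice of genes did not use. In Migrant 7 of the 100 genes were called (adjusted p under 0.05), beside 1.39% of all tested genes and 2.66% of the 3878. In LP 1 gene was called, beside 0.55%, and in SP 1, beside 1.12%. At an unadjusted p under 0.05 the Migrant count was 27, beside 17.2% of all tested genes and 25.3% of the 3878, the latter close to the share of the 100. The Migrant count was 3 without ZT10 replicate 2 (1.07% of tested genes in that fit), 11 without ZT1 replicate 1 (2.3%), 3 with an F-test over the 8 time points (0.482%), 4 with a pseudocount of 0.1 (1.34%) and 2 when Migrant libraries were fitted alone (0.404%).

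DPOGS205105 (DPSCF300172, 324242 to 329688) rose to a fitted peak between ZT12.2 and ZT13.1 in all 3 groups. Light lasted 15 h in LP, 10 h in SP and 11 h in Migrant. The LP peak thus fell before lights-off and the SP and Migrant peaks after it. In Migrant it averaged 7.14 scaled FPKM at ZT1, 6.05 at ZT4, 7.81 at ZT7, 11.0 at ZT10, 12.2 at ZT13, 9.11 at ZT16, 7.01 at ZT19 and 5.73 at ZT22. In LP the lowest and highest time means were 2.92 at ZT1 and 5.82 at ZT13, and in SP 1.81 at ZT22 and 3.93 at ZT13. The same shape therefore ran at 3 levels. The log2 amplitude was 0.43 ± 0.07 (SE) in Migrant with a fitted peak at ZT12.2 (limma adjusted p = 0.000886), 0.36 ± 0.07 in LP with a peak at ZT13.1 (limma adjusted p = 0.0103) and 0.37 ± 0.07 in SP with a peak at ZT12.2 (limma adjusted p = 0.00656). The Migrant call held under all 58 alternatives, with adjusted p of at most 0.037. The LP call was lost in 3 of 58 alternatives: without LP ZT13 replicate 2 (limma adjusted p = 0.129), with quantile normalization (0.197) and in the F-test over time points (0.571). The SP call was lost in 2 of 58, the F-test over time points (limma adjusted p = 0.126) and the fit to SP libraries alone (0.186).

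DPOGS213326 (DPSCF300341, 24127 to 29352) had the opposite phase. In Migrant it averaged 68.2 scaled FPKM at ZT1, 61.3 at ZT4, 65.7 at ZT7, 52.5 at ZT10, 47.3 at ZT13, 46.4 at ZT16, 52.3 at ZT19 and 63.5 at ZT22. It was thus high from late night into the day and low in the first part of the night. The log2 amplitude was 0.27 ± 0.04 (SE) with a fitted peak at ZT2.49 (limma adjusted p = 0.00069). In LP the time means lay between 23.7 and 32.2 and in SP between 24.1 and 31.3. Amplitudes there were 0.17 ± 0.04 in LP (limma adjusted p = 0.309) and 0.19 ± 0.04 in SP (limma adjusted p = 0.0534). The Migrant call was lost in the F-test over time points (limma adjusted p = 0.123) and held in the other alternatives.

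The other 5 genes called in Migrant had fitted peaks at ZT2.34, ZT9.92, ZT10.5, ZT11.4 and ZT11.9. The first of these was DPOGS204860, with 1.31 reads per Migrant library, and the fourth was DPOGS201966, whose highest value (46.0, the next being 14.0) lay in ZT10 replicate 2. Both were named after their values were seen. Without Migrant ZT10 replicate 2 none of the genes with peaks from ZT9.92 to ZT11.9 was called (limma adjusted p from 0.0599 to 0.134). All 5 calls were lost in the F-test over time points (limma adjusted p from 0.232 to 0.349). They were also lost with Migrant libraries fitted alone (limma adjusted p from 0.387 to 0.555). A difference of rhythm between Migrant and LP was called for 0 of the 100 genes by limma, beside 0.043% of tested genes, with 19 at an unadjusted p under 0.05 beside 5.73% and 8.51% of the 3878. Between Migrant and SP it was also called for 0, beside 0.0086%, with 20 at an unadjusted p under 0.05 beside 6.78% and 9.7% of the 3878. The lowest adjusted p was 0.522 against LP and 0.571 against SP. A rhythm particular to Migrant was therefore not shown for any of the 100. Median log2 amplitudes were 0.23 in Migrant, 0.12 in LP and 0.15 in SP, beside 0.15, 0.06 and 0.09 in the other genes passing the filters (the SD over libraries was wider in the 100 genes too). Adding 1 before taking logs shrinks amplitudes more at the lower LP and SP levels of the 100 genes. Their medians are therefore not on a like scale between groups.

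**Figure D3:**
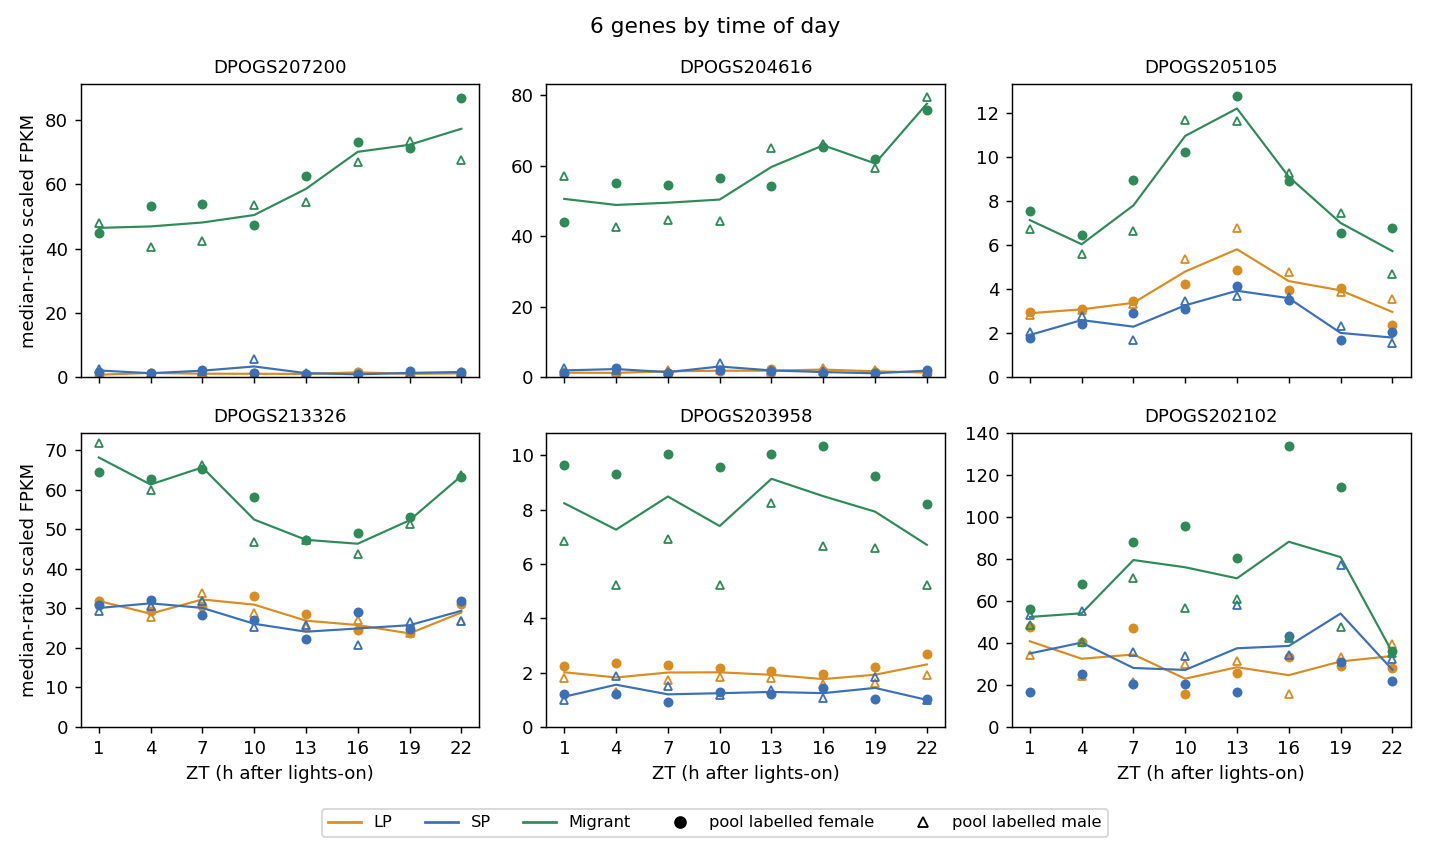
Scaled FPKM against ZT (hours) for 6 of the 100 genes; lines join the mean of both pools at each time, filled circles are pools labelled female and open triangles pools labelled male. The Migrant line (green) is the highest at every time in all 6 genes; DPOGS205105 peaks near ZT13 in every group, DPOGS213326 dips between ZT13 and ZT16 in Migrant, and female Migrant pools lie above male ones at all times in DPOGS203958 and DPOGS202102.

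The second source of variation was the sex label. In LP and Migrant the pools labelled female were replicate 1 and in SP replicate 2, so sex and replicate number cannot be told apart. The p-values set each difference against a spread between pools that all 3 groups shared per gene, not the group's own. For the 100 genes the median SD of y was narrowest in LP and widest in Migrant. Whether a gene is called in a group thus depends on the pools of the other groups too. Counts from fits to each group's own libraries are also given below. In Migrant 1 of the 100 genes was called, beside 0.602% of tested genes. At an unadjusted p under 0.05 there were 29, beside 8.62% and 10.4% of the 3878, of which 20 were higher in female pools, beside 2.97% and 3.33%. The 29 became 19 with FPKM as deposited, beside 11.3% of tested genes, 18 with a pseudocount of 0.1, beside 8.23%, 17 with Migrant libraries fitted alone, beside 5.34%, and 19 without ZT10 replicate 2 and ZT22 replicate 1, beside 9.79%. Regardless of size, 66 of the 100 genes were higher in female than in male Migrant pools, beside 46.4% of tested genes and 42.3% of the 3878. Without the ZT22 pools the count was 65, beside 49.1% of tested genes and 47.8% of the other 3778. In LP 60 of the 100 were higher in female pools, beside 52.3% and 52.2%, and in SP 41, beside 51.3% and 48.6%. The 100 genes are not independent of each other, and no test was made of these counts.

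DPOGS203958 (DPSCF300005, 383821 to 406597) was the gene called in Migrant. Its scaled FPKM in Migrant was 8.20 to 10.3 in female pools (median 9.60) and 5.21 to 8.24 in male pools (median 6.63), higher in the female pool at 8 of 8 times. Female minus male was 0.53 ± 0.08 log2 units (SE, limma adjusted p = 0.000608). Fitted on Migrant libraries alone the difference was the same and the adjusted p 0.0712. In LP female pools ran from 1.96 to 2.68 and male pools from 1.30 to 1.93, without overlap, but the difference of 0.27 ± 0.08 was not called (limma adjusted p = 0.147). In SP the labels overlapped (0.911 to 1.43 and 0.982 to 1.89) and the difference was -0.11 ± 0.08. At either label Migrant levels lay above all LP and SP levels. The difference between Migrant and LP in this respect was 0.26 ± 0.12 (limma adjusted p = 0.557). Adding 1 before taking logs shrinks the LP and SP differences more, as levels there were lower.

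In LP no gene of the 100 was called by sex label with limma, beside 1.13% of tested genes; 14 had an unadjusted p under 0.05, beside 10.5%, and 9 were called when LP libraries were fitted alone, beside 18.6% in that fit. In SP 12 were called, beside 43% of tested genes and 21.5% of the 3878, so that the filter of the rule on SP minus LP already goes with a lower share. Of the 12, 5 were higher in female pools (23.1% and 9.52% in the same sets) and 7 lower. With FPKM as deposited the count was 14 (43.4% of tested genes), of which 13 were higher in female pools, and with quantile normalization 18 (31.5%), of which 2 were higher, so the direction of the SP set depends on the scaling. Over all tested genes 2688 of 5005 calls were higher in female SP pools after scaling, 4047 of 5047 as deposited and 1867 of 3663 with quantile normalization. The SP count was 7 without either pool of SP ZT4, beside 28.5% and 28.4%, and 21 without either pool of Migrant ZT22, beside 53.9% for each.

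DPOGS202102 (DPSCF300150, 446012 to 450451) had opposite signs in SP and Migrant. In SP it was 16.6 to 43.1 in female pools (median 21.3) and 32.5 to 77.1 in male pools (median 44.7), higher in the male pool at 7 of 8 times. In Migrant it was 36.0 to 134 in female pools (median 84.4) and 35.1 to 70.9 in male pools (median 48.1), higher in the female pool at 8 of 8 times. Female minus male was -0.93 ± 0.22 log2 units in SP (limma adjusted p = 0.00239) and 0.67 ± 0.22 in Migrant (limma adjusted p = 0.251). Male Migrant pools thus lay within the range of male SP pools, although the Migrant mean lay 0.91 above SP. DPOGS206718 was also lower in female SP pools, by -0.55 ± 0.17 (limma adjusted p = 0.0131), a call lost in 4 of 56 alternatives: FPKM as deposited (0.0666), SP libraries alone (0.0588) and without either pool of SP ZT4 (0.0561 each).

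DPOGS200717 went the other way in SP. It was 8.96 to 14.9 scaled FPKM in female SP pools and 4.32 to 10.3 in male ones, higher in the female pool at 7 of 8 times, and the difference was 0.56 ± 0.12 (limma adjusted p = 0.00141). In Migrant it was higher in the female pool at 4 of 8 times (-0.10 ± 0.12). DPOGS211714 was called as well, at 1.67 ± 0.37 (limma adjusted p = 0.00175), on 1.37 reads per SP library.

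A sex-label difference that itself differed between Migrant and SP was called for 12 of the 100 genes, beside 20.8% of tested genes and 12.3% of the 3878. In 10 of the 12 female minus male was higher in Migrant, beside 9.82% of tested genes and 6.09% of the 3878. With FPKM as deposited 17 were called, 4 of them in that direction, beside 30.7% and 3.04% of tested genes. With quantile normalization 22 were called, 20 of them in that direction, beside 15.3% and 8.25%, so where the count lies against its background depends on the scaling. Between Migrant and LP 0 of the 100 were called by limma, beside 0.0602%, with 9 at an unadjusted p under 0.05 beside 8.87%, and the lowest adjusted p was 0.422.

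The 100 genes lay on 79 of the 774 scaffolds that hold tested genes. On 64 scaffolds there was 1 of them, and no scaffold held more than 4. Their median span was 4434 bases, beside 3430 for all tested genes and 3632 for the others passing the filters, and 18% were shorter than 1000 bases, beside 17.7%. The 129 tested genes next to them that were not among the 100 had median differences of -0.01 log2 units for Migrant minus LP and 0.10 for Migrant minus SP. Over all tested genes these medians were -0.03 and 0.01. Neighbours that were themselves among the 100 were left out, so the medians lack the neighbours that were chosen for this difference. In 4 cases one of the 100 overlapped the span of another gene, where reads may be shared.

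Within 20000 bases of each other lay 8 pairs of the 100 genes, involving 15 genes. The closest was DPOGS214093 and DPOGS214289 on DPSCF300014 (2243368 to 2248098 and 2249476 to 2252484), 1378 bases apart with no gene between. DPOGS214093 ran from 0.722 to 2.40 scaled FPKM in LP (median 1.36), from 0.845 to 3.08 in SP (median 1.60) and from 4.36 to 13.9 in Migrant (median 9.44). DPOGS214289 ran from 1.82 to 5.87 (median 2.98), from 1.57 to 5.39 (median 4.06) and from 7.05 to 33.7 (median 21.0). Migrant libraries lay above all others in both, and the genes moved together within each group, with Pearson's r of y of 0.77 for LP, 0.83 for SP and 0.88 for Migrant (16 libraries each, which share depth and preparation).

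The next closest pair, DPOGS202140 and DPOGS202138 on DPSCF300193 (7507 to 11445 and 13035 to 25566), lay 1590 bases apart and did not move together. DPOGS202140 ran from 0.348 to 1.89 in LP, from 0.219 to 2.82 in SP and from 3.12 to 16.0 in Migrant, and DPOGS202138 from 1.95 to 6.51, from 2.38 to 8.09 and from 10.1 to 26.9. Again no Migrant library reached the others, but r was -0.12 for LP, -0.02 for SP and -0.26 for Migrant. Over the 8 pairs r had a median of 0.75 in Migrant (0.78 without ZT22 replicate 1), 0.51 in LP and 0.54 in SP, beside 0.14 (0.05), 0.08 and 0.13 over all 22682 tested pairs as close. In 2 pairs, named after their values were seen, the levels were almost equal: DPOGS204061 and DPOGS204060 averaged 6.92 and 6.81 in Migrant, and DPOGS214546 and DPOGS214545 averaged 5.53 and 5.48. If these are copies, the counting could have split reads between them, and their separate values are uncertain.

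**Figure D4:**
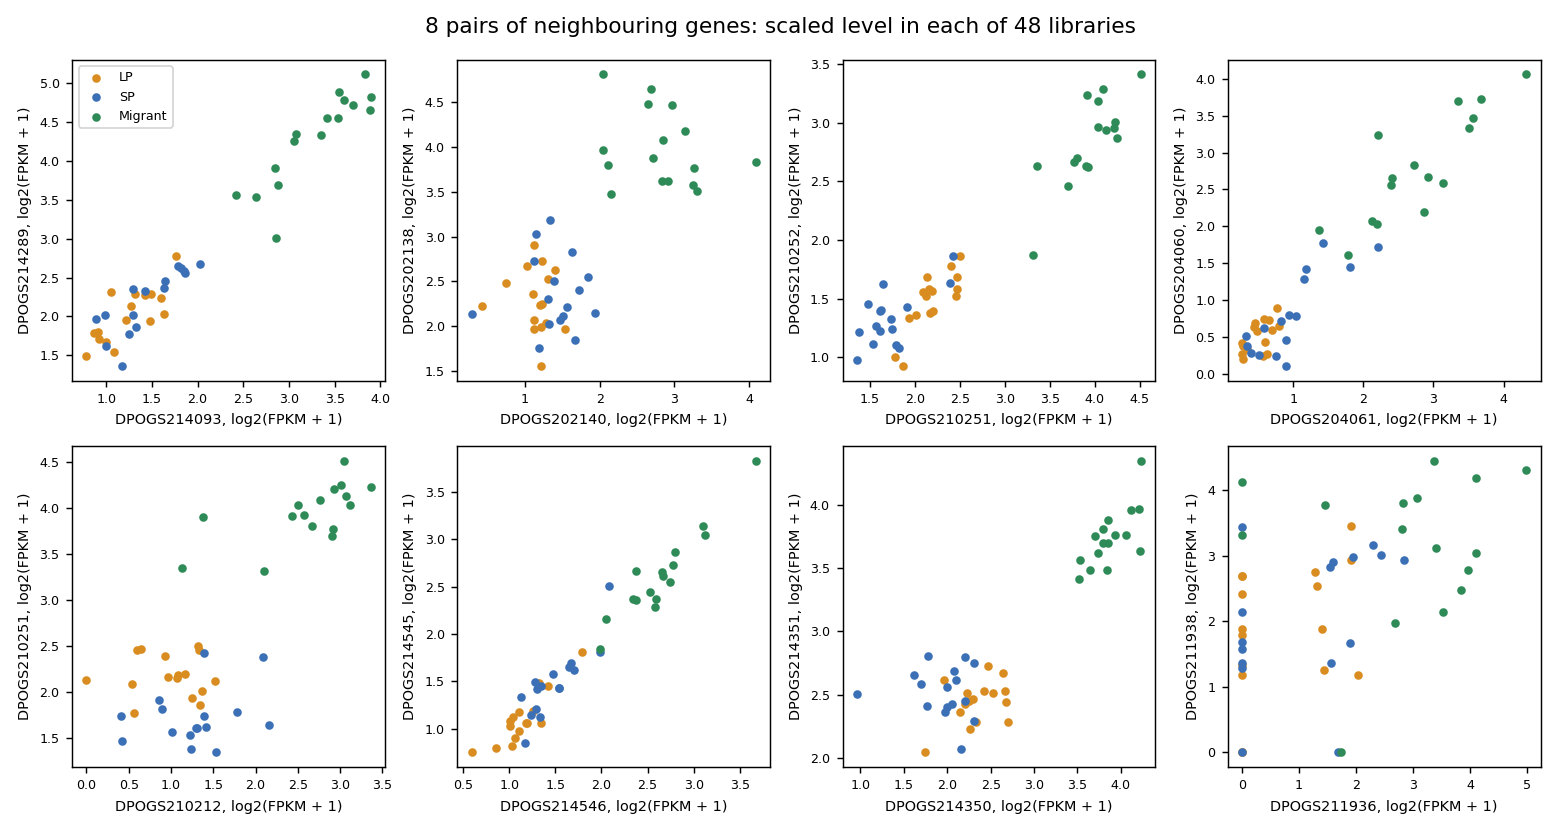
Each panel sets y, the log2 of scaled FPKM plus 1, of one gene against that of its neighbour for the 8 pairs within 20000 bases, with 1 point per library coloured by group. Points follow a line within groups in the first pair (r of 0.88 in Migrant) and form loose clouds in the second (-0.26), while Migrant points lie apart from LP and SP in both; the last pair has genes listed at 0 in several libraries.

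Across all 100 genes, pairs of genes varied together only weakly over the 16 Migrant libraries. The median r over the 4950 pairs was 0.05 in Migrant, and 2.99% of pairs had an r over 0.7, beside 14.3% among the other genes passing the filters. Without ZT22 replicate 1 these shares were 3.29% and 0.75%, so the order of the sets rests on that library.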

How the data were processed

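Reads of 48 pooled-brain libraries were processed with CASAVA 1.8.2, TopHat2 and Cufflinks, per the submitters' processing notes. The authors deposited FPKM with confidence limits for 15130 genes. Coordinates are as deposited, on a genome build not given in the sources used here, as is the strand setting of the counting. Identifiers matched 0 of 14790 RefSeq genes (assembly MEX_DaPlex), so gene lists and cell type markers could not be run and no sequence is shown.

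FPKM was scaled by median ratios (factors 0.736 to 1.18) and tested as log2 with a pseudocount of 1, for 11630 genes with a mean deposited FPKM of 0.5 or more. All 100 genes passed this filter. limma 3.58.1 (R 4.3.3; trend, robust; Benjamini-Hochberg over all tested genes, adjusted p under 0.05) fitted all 48 libraries, with group means and a 24 h cosine and sine per group, or with 24 group-by-time means and a sex term per group. In both models the groups shared a spread per gene. Both were checked first on simulated data with equal spread in all groups and no library that stood apart. The check therefore does not cover unequal spread or outlying libraries. Tables and plots used Python 3.11.15, pandas 2.3.3 and matplotlib 3.10.9.

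Reads per gene were recovered from the upper confidence limit. Per library, 82.5% to 85.1% of those under 30 reads came within 0.05 of whole, too few for a count test. These reads were used for depth only.

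The genes, lists and tests were chosen with earlier results of these data known. Per subject, at most 2 genes in each direction are named: by largest difference, edge of the rule, level, spread, SP minus LP, smallest adjusted p, and nearness. Alternatives were deposited or quantile-normalized FPKM, a pseudocount of 0.1, other filters, other empirical Bayes settings, a replicate block, an F-test over time points, each group fitted alone, and each library left out. Groups, times and sex labels came from the labels. Nothing says whether pools share cultures or capture sites.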

Additional observations from a re-analysis of the deposited data

Results flagged for a closer look

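The female minus male difference itself differed between Migrant and SP in 12 of the 100 genes (limma, adjusted over all tested genes), beside 20.8% of tested genes. In each case the sex label runs with the replicate number, in the opposite order in SP, and their parts were not tested. For DPOGS203958 the difference in Migrant exceeded that in SP by 0.64 ± 0.12 log2 units (SE, adjusted p = 0.00115). For DPOGS202102 it did so by 1.59 ± 0.31 (adjusted p = 0.00213). For DPOGS201880 the difference between groups was -0.61 ± 0.12 (adjusted p = 0.00293): the female pool was higher at 7 of 8 times in SP and the male pool at 7 of 8 times in Migrant. For DPOGS200717 it was -0.66 ± 0.17 (adjusted p = 0.0127). These 4 calls held in all 55 alternatives run for each.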

How the results depend on the processing

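Deviations of samples that share a replicate number were at most weakly correlated between groups (24 correlations of -0.126 to 0.166, median 0.038, 3 over 0.1). In SP the sex label runs with the number in the opposite order, so the parts of both could cancel in correlations with SP. Whether the numbers pair samples is therefore not decided. With a replicate block 8 genes had a rhythm in Migrant, 3 in SP and 1 in LP, beside 342, 182 and 71 of all 11630 tested genes. No rhythm difference was called for the 100 genes in that fit, beside 6 tested genes against LP and 1 against SP. For sex labels no such fit was made, since label and number coincide. Rhythm counts in Migrant were 4 with a pseudocount of 0.1 (156 of 11630 tested genes), 3 in the F-test over time points (56) and 2 on its own libraries (47). They were 3 without ZT10 replicate 2 and ZT22 replicate 1 (left out together after the data were seen), and 3 to 11 with each library left out. The fit without ZT10 replicate 2 gave 3, beside 124 of 11630 tested genes, and that without ZT1 replicate 1 gave 11, beside 267. In LP the rhythm counts were 0 with quantile normalization (69 of 11630 tested genes) and in the F-test (26 of 11630), and 0 to 1 with each library left out. In SP they were 3 with a pseudocount of 0.1 (146 of 11630 tested genes) and 3 without both Migrant libraries. The SP count was 0 in the F-test (49 of 11630) and on its own libraries (60 of 11630), and 1 to 3 with each library left out. Sex-label counts on a group's own libraries were 9 in LP, 6 in SP and 0 in Migrant, beside 18.6%, 9.58% and 0.0774% of tested genes in the same fits, and without both Migrant libraries 2, 22 and 4, beside 4.68%, 54.7% and 1.1%. With each library left out they were 0 to 1 in LP, 7 to 21 in SP and 1 to 3 in Migrant. The difference between Migrant and SP was called for 22 with quantile normalization (1781 of 11630 tested genes) and for 8 to 18 with each library left out. Calls over all tested genes moved between these fits too. Nothing is therefore read from a range or count that stands here without them. The rule chose 53 of the 100 genes again with quantile normalization, 33 with a mean of 10 FPKM or more, 61 with SP within 0.25 of LP, 96 with FPKM as deposited, and 93 to 99 with each library left out, 75 of them every time. Fold sizes of the 13 genes under 10 reads are limited by depth. The cause of these changes was not tested.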
